A study of Mus musculus with 6 samples.

Results

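The genes described here are a small group tied to the heartbeat of the embryo: the channel genes Hcn2, Hcn3 and Hcn4 of the pacemaker current, the transcription factor gene Shox2, the calcium sensor gene Vsnl1, and Scn4b, which encodes a beta subunit of the voltage-gated sodium channel. They were chosen by name, and 5 of the 6 were among the 15330 rows of the normalized count table. Hcn2 was not among them and is not analysed here. RNA was sequenced from micro-dissected mouse hearts at embryonic day 9.5, in 3 libraries from embryos with both copies of a 373 kb interval upstream of Hand2 removed by CRISPR-Cas9 (H2-URI d/d) and 3 libraries from wild-type embryos. The deletion is a germline allele, so the whole embryo carried it and not the heart alone. Replicates 1 and 2 of each group were labelled female and replicate 3 male, with the same batch number, 1, throughout. The labels give neither the strain nor the number of hearts behind a library, and p-values reflect only how these libraries spread, which may be technical. The study asked how heart expression of Hand2, a basic helix-loop-helix transcription factor, and of other genes depends on this interval.

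In the early heart tube, beats start at the inflow end, in the sinus venosus that gives rise to the sinoatrial node. Hcn channels open when the membrane is hyperpolarised and pass sodium and potassium, and so carry the inward current that starts the next beat. The Hcn4 channel is speeded by cyclic AMP. Shox2 is a homeobox repressor needed in the mouse for the sinoatrial node, where it holds back the chamber factor Nkx2-5, while the voltage-gated sodium channel drives the fast upstroke of the beat in working and conducting muscle.

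Reads recovered from the values summed over all rows to between 26016264 and 30117718 in the deletion libraries and between 25583210 and 32043595 in the wild-type ones. Reads outside these rows are not counted. The values are normalized counts. In each library they are whole multiples of 1 read, as reads divided by a factor for that library would be. Columns were matched to samples by the code in the sample titles. For 4 of the 6 samples the recorded file carries a code of the other group, and the fold changes under that record are given with the limits at the end. Hand2 itself stood at 1025, 1158 and 1163 normalized counts in the deletion libraries and at 3911, 3789 and 4407 in the wild-type libraries, a log2 fold change of −1.85 (SE 0.08, adjusted p = 1.51e-05, limma). Under the recorded files its log2 fold change was 0.57. Markers of both chambers were present: the ventricular list summed to between 263893 and 291751 normalized counts in the deletion libraries and between 256574 and 283418 in the wild-type ones, and the atrial and sinus venosus list to between 117441 and 134419 in the deletion against between 115663 and 151295 in wild-type (7 of 8 measured, without Sln). Most of that atrial sum is Myl7. Blood content varied within both groups, with summed primitive blood markers between 82109 and 435975 normalized counts in the deletion libraries and between 116201 and 338572 in the wild-type ones.

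None of the 5 measured genes passed the threshold in either direction. The test was limma on log2(normalized count + 1), a linear model that draws the variance of each gene towards a trend over all genes. It called a gene at a Benjamini-Hochberg adjusted p under 0.05 over all 15330 genes. It called 0 of 5 higher and 0 of 5 lower, where 3.05% of all genes were called (1.55% higher and 1.5% lower). That share rests on single libraries, and ranged from 0.672% without deletion replicate 2 to 7.57% without wild-type replicate 2. At an unadjusted p under 0.05 there were 2 of 5, Shox2 and Vsnl1, where 21.4% of all genes were. EdgeR's quasi-likelihood test and DESeq2, run on the reads recovered from the table, also called 0 (of 4 with an adjusted p in DESeq2, which gave Hcn3 none), with 2 at an unadjusted p under 0.05 each. In all 5 genes the deletion and wild-type libraries overlapped, while they did not overlap for 27.4% of all genes (12.9% higher and 14.5% lower in the deletion). Log2 fold changes were positive for 4 of the 5 and negative for Scn4b, with a median of 0.27 against −0.01 over all genes.

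**Figure D1:**
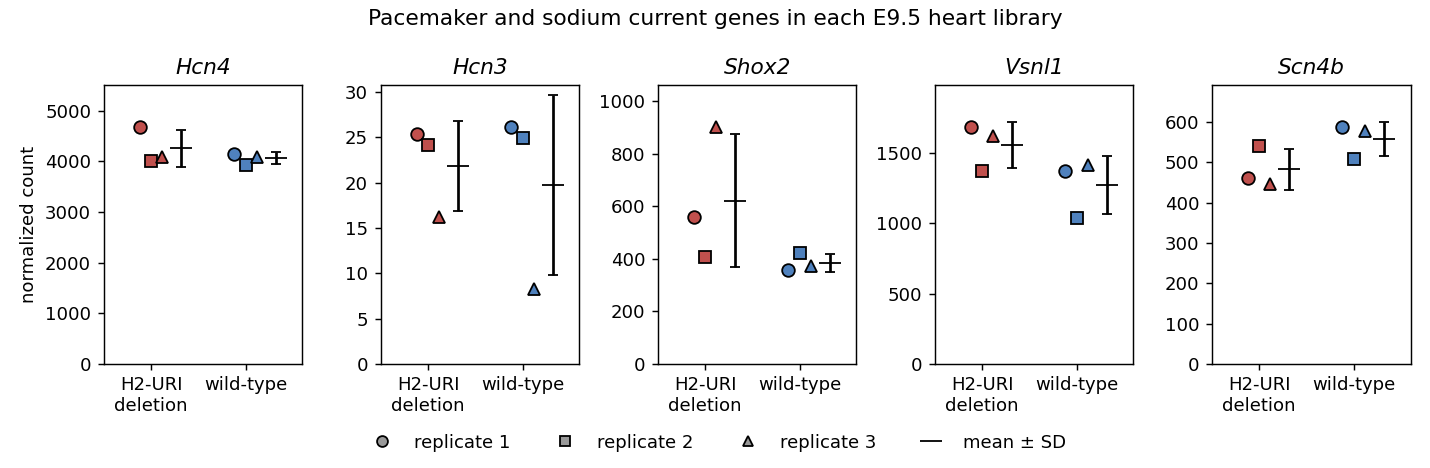
Normalized counts (y axis, from 0) of the 5 measured genes in each library, deletion libraries left and wild-type right in each panel; symbols mark the replicate, and bars the mean ± SD of 3 libraries. The groups overlap in every panel, and Shox2 has its highest value, 899.6, in deletion replicate 3.

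Promoters of the gene with the most transcript per library among the Hcn genes and of the pair with the smallest p-values are shown as sequence, because Hand2 binds E-boxes (CANNTG) as a basic helix-loop-helix factor and was the gene lowered in these hearts. Each window runs from 250 bases before to 50 bases after a transcript start, in RefSeq's annotation of GRCm38.p6, another build than the GRCm39 of the authors. Of the 6 named genes 5 had such an entry, and Hcn3 had none. Capitals mark CANNTG, which reads the same on both strands.
Shox2, chr3:66981722-66982021, minus strand: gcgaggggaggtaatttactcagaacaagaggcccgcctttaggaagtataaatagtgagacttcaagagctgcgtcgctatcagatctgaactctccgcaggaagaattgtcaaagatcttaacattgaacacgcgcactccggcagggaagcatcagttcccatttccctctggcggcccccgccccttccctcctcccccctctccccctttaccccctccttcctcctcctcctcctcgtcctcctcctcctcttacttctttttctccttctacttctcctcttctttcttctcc
Vsnl1, chr12:11436529-11436828, minus strand: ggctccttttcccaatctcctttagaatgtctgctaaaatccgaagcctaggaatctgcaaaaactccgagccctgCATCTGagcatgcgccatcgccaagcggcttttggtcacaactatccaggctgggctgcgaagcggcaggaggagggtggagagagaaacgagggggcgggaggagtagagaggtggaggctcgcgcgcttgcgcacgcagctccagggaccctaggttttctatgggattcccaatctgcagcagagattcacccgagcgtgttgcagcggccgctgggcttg
Hcn4, chr9:58822699-58822998, plus strand: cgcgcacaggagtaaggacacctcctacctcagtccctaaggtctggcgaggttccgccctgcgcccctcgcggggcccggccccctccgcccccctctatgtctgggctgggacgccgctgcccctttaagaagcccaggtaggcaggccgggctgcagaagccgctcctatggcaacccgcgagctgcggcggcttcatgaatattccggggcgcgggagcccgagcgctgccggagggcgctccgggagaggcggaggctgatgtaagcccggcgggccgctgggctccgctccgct
The Shox2 and Hcn4 windows held 0 matches, and so did that of Scn4b, as did 27.7% of the 32851 promoter windows of this length. The Vsnl1 window held 1 match, of the form CATCTG, which is found on either strand in 17.2% of windows. The window of Hcn2, which has no expression values here, held 1 match, of the form CAGGTG. A second Vsnl1 start, at chr12:11435602-11435901, held 1 match of another form. The windows differ in composition, with a GC content of 53.3% for Shox2, 58.7% for Vsnl1 and 71.7% for Hcn4. A match is a string of letters and not a measured binding site.

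Shox2 had the highest fold change of the group and the widest relative spread among deletion libraries, where its highest value was 2.22 times its lowest. It stood at 560.5, 404.8 and 899.6 normalized counts in deletion replicates 1 to 3, against 355, 423 and 372 in wild-type replicates 1 to 3. A single deletion library was far above the rest, and the lowest deletion library lay inside the wild-type range. The means were 622 ± 253 in the deletion and 383 ± 35.1 in wild-type (SD, n = 3 each), a log2 fold change of 0.62 (SE 0.23, 95% interval 0.10 to 1.15) with an unadjusted p of 0.0248 and an adjusted p of 0.167 in limma. An exact two-sided permutation test over the 6 libraries gave p = 0.2, where 0.1 is the smallest that 3 against 3 allows. Without deletion replicate 3 the log2 fold change was 0.32 (adjusted p = 0.356, limma), and without deletion replicate 2 it was 0.89 (adjusted p = 0.0953, limma).

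The library with the most Shox2 also had the most of the epicardial and blood markers. Summed markers of the proepicardium and epicardium (Wt1, Tbx18, Tcf21, Upk3b and Upk1b, all 5 measured) stood at 2063, 2196 and 3380 normalized counts in deletion replicates 1 to 3, against 1354, 2255 and 1535 in wild-type replicates 1 to 3. Of these 5 genes 4 were highest in deletion replicate 3, and Upk3b was highest in wild-type replicate 2. All 5 primitive blood markers were highest in deletion replicate 3 too, as were 3 of the 7 measured atrial and sinus venosus genes, the nuclear receptor genes Nr2f1 and Nr2f2 and Tbx18. Tbx18, which marks both sinus venosus and proepicardium, stood at 1120, 1139 and 1850 normalized counts in the deletion libraries, against 679.9, 974 and 789.8 in the wild-type libraries. Isl1, a LIM-homeobox factor of the second heart field and sinus node, was highest in wild-type replicate 1 instead, with 372, 483 and 514 in the deletion libraries against 755, 476 and 461 in the wild-type libraries. The part of these markers in the Shox2 values was not tested, and in such whole-heart samples a different number of cells of a type and a different amount of RNA per cell cannot be told apart. Shox2 is also known from limb and pharyngeal mesenchyme, whose markers (5 of 7 measured) summed to between 1572 and 1756 normalized counts in the deletion and between 1172 and 1732 in wild-type libraries, and deletion replicate 3 held 1619.

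**Figure D2:**
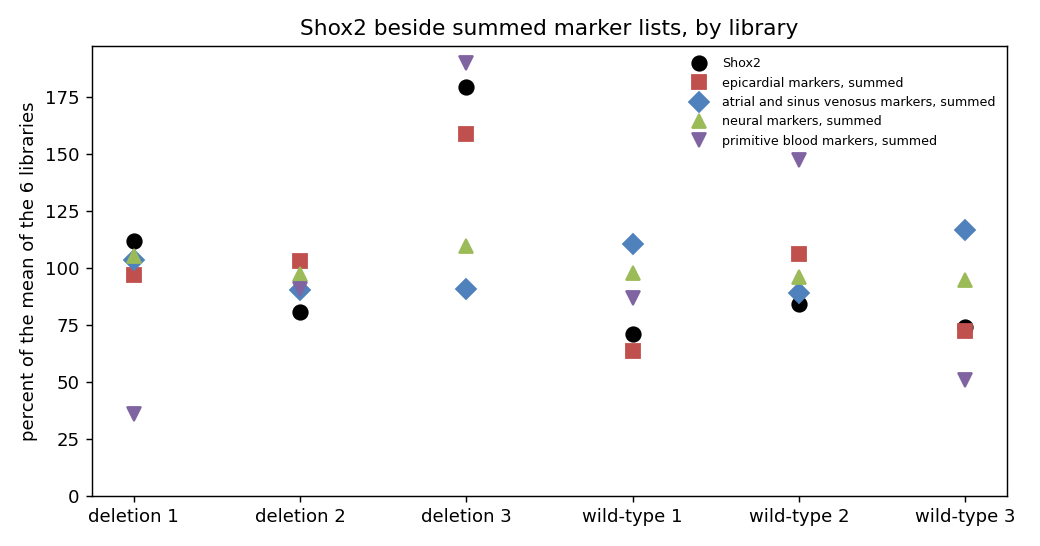
Shox2 and 4 summed marker lists in each library, deletion libraries left, as a percentage of the mean over the 6 libraries (y axis, from 0). In deletion replicate 3 Shox2 stands at 179%, the epicardial sum at 159% and the blood sum at 189.5%, while the atrial and sinus venosus sum, mostly Myl7, stands at 90.7%.

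Hcn4, the main pacemaker channel of the embryonic heart, was close to level between the groups. The deletion libraries held 4665, 4006 and 4085 normalized counts and the wild-type libraries 4151, 3922 and 4089.8. Only deletion replicate 1 stood above all wild-type libraries. The means were 4252 ± 360 in the deletion and 4054 ± 118 in wild-type (SD, n = 3 each), with a log2 fold change of 0.07 (SE 0.07, adjusted p = 0.642, limma). The 95% interval of −0.10 to 0.23 corresponds to between 0.936 and 1.17 times the wild-type level. The sign was not stable, at −0.09 once values were corrected for the length and GC content of transcripts and at −0.0026 without deletion replicate 1.

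Hcn3, a family member better known from neurons, was detected at low counts only. The libraries held 24, 26 and 15 reads in the deletion and 23, 28 and 9 in wild-type, or 25.3, 24.1 and 16.2 normalized counts in the deletion against 26.1, 24.9 and 8.24 in wild-type. In both groups replicate 3, the male library, was the lowest. The log2 fold change of 0.27 had an interval of −0.72 to 1.26 (adjusted p = 0.767, limma), and it was −0.24 without wild-type replicate 3 and −0.04 in the 4 female libraries. The interval runs from 0.608 to 2.39 times the wild-type level.

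Per kilobase of the longest annotated transcript, Hcn4 far outweighed Hcn3. Its share of the Hcn3 and Hcn4 sum was 99.2%, 99.1% and 99.4% in deletion replicates 1 to 3, against 99.0%, 99.0% and 99.7% in wild-type replicates 1 to 3. The difference of −0.04 percentage points was smaller than the spread (exact two-sided permutation p = 1).

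Vsnl1 encodes visinin-like protein 1, a neuronal calcium sensor that also marks sinoatrial node cells. It stood at 1680.3, 1369.5 and 1618 normalized counts in the deletion libraries and at 1368, 1035 and 1413 in the wild-type libraries. Deletion replicates 1 and 3 lay above all wild-type libraries, and deletion replicate 2 lay beside wild-type replicate 1. The means were 1556 ± 164 in the deletion and 1272 ± 206 in wild-type (SD, n = 3 each), a log2 fold change of 0.30 (SE 0.12, 95% interval 0.02 to 0.58) with an unadjusted p of 0.0379 and an adjusted p of 0.204 in limma. Wild-type replicate 2 was the lowest library, and without it the log2 fold change was 0.16 (adjusted p = 0.354, limma). The neural markers, 10 of 12 measured, summed to between 823 and 927 normalized counts in the deletion and between 799.8 and 826 in wild-type libraries, and Elavl3 and Neurog2 were not among the rows. Their part in the Vsnl1 values was not tested.

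Scn4b encodes the beta-4 subunit, a single-pass membrane protein with an immunoglobulin-like domain that alters sodium channel gating. It stood at 461, 541 and 446 normalized counts in the deletion libraries and at 587, 509 and 578 in the wild-type libraries. Deletion replicates 1 and 3 were below all wild-type libraries, and deletion replicate 2 was above wild-type replicate 2. The means were 483 ± 51.2 in the deletion and 558 ± 42.8 in wild-type (SD, n = 3 each), a log2 fold change of −0.21 (SE 0.10, 95% interval −0.44 to 0.02, adjusted p = 0.276, limma). The sign was negative under every alternative tried, from −0.31 with the correction for length and GC content to −0.04 under the recorded files, and none of them gave a call. Alternatives that changed only the filter, the variance or a balanced term could not change that sign.

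**Figure D3:**
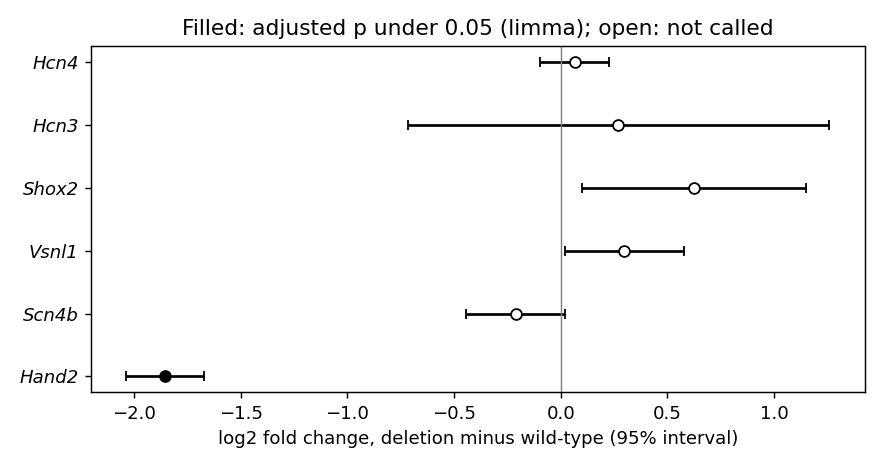
Log2 fold changes, deletion minus wild-type, with 95% intervals from limma (x axis) for the 5 measured genes and for Hand2; filled points passed an adjusted p of 0.05 and open points did not. The Hcn3 interval spans −0.72 to 1.26, the Hcn4 interval −0.10 to 0.23.

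Per kilobase of transcript, the order of mean levels among the 5 genes was the same in both groups. Vsnl1 stood at 818 ± 86.4 normalized counts per kilobase in the deletion and 668 ± 108 in wild-type, and Hcn4 at 695 ± 58.8 in the deletion and 663 ± 19.4 in wild-type (SD, n = 3 each). These neighbours overlapped in both groups. Shox2 followed with 202 ± 82.2 in the deletion and 124 ± 11.4 in wild-type, then Scn4b with 96.9 ± 10.3 in the deletion and 112 ± 8.59 in wild-type. This pair overlapped in wild-type, where the lowest Shox2 library stood at 115 and the highest Scn4b library at 118, but not in the deletion, where the lowest Shox2 library stood at 131 and the highest Scn4b library at 109. Hcn3 was lowest, at 5.47 ± 1.24 in the deletion and 4.94 ± 2.50 in wild-type.

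Among the other genes of the pacemaker programme, on a list of 41 genes of node specification, calcium and potassium currents, Hcn partners and cyclic AMP control, 39 were measured, and 3 rose and 1 fell in the deletion. That is 10.3% of the measured list against 3.05% of all genes, with a median log2 fold change of 0.08 against −0.01 over all genes. The 3 lists used here were chosen with earlier results of these data known. Their shares beside those of all genes are therefore descriptions and no test of enrichment. At an unadjusted p under 0.05, 10 were higher and 4 lower, 35.9% of the measured list against 21.4% of all genes. Rgs6, a regulator that shortens G protein signalling and limits vagal slowing of the node, rose to 946, 863 and 868 normalized counts in the deletion libraries, against 533, 564 and 591 in the wild-type libraries (log2 fold change 0.66, SE 0.08, adjusted p = 0.0037, limma). Its groups were far apart, and it kept its call whichever library was left out. None of the genes called on the 3 lists passed in the 4 female libraries alone, where 0.228% of all genes did and the log2 fold change of Rgs6 was 0.72. Without an intensity trend in the variance, where 0.952% of all genes passed, Rgs6 was the only 1 of them that did. Cacna2d2, an auxiliary subunit of voltage-gated calcium channels, rose to 11194 ± 648 in the deletion against 8142 ± 608 in wild-type (SD, n = 3 each; log2 fold change 0.46, adjusted p = 0.0163, limma). Tbx3, a repressor that keeps chamber genes silent in the node, rose to 1212 ± 118 in the deletion against 901 ± 16.8 in wild-type (0.42; adjusted p = 0.0303, limma).

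Bves, a Popeye domain protein that binds cyclic AMP, was the gene that fell, to 2653, 2480.0 and 2466 normalized counts in the deletion libraries, against 3074, 3365 and 3769 in the wild-type libraries (log2 fold change −0.42, SE 0.08, adjusted p = 0.0263, limma). Cacna2d2 lost its call without deletion replicate 1 or 2, Tbx3 without deletion replicate 1 or 2 or wild-type replicate 3, and Bves without any 1 of the deletion libraries or wild-type replicate 3. With the replicate number as a block these 3 had adjusted p-values of 0.0585, 0.0629 and 0.0703 in limma, and with the correction for length and GC content Cacna2d2 (0.0568) and Tbx3 (0.0559) did not pass.

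On the list of 28 sodium current genes, 21 were measured, and 1 rose and 1 fell, 9.52% of the measured list against 3.05% of all genes, with a median log2 fold change of 0.13 against −0.01. At an unadjusted p under 0.05, 6 were higher and 1 lower, 33.3% of the measured list against 21.4% of all genes. The gene that rose was Scn3a, an alpha subunit best known from the developing brain. It stood at 20.1, 47.4 and 59.4 normalized counts in the deletion libraries and at 6.81, 2.67 and 3.66 in the wild-type libraries (log2 fold change 2.95, SE 0.48, adjusted p = 0.0148, limma). All wild-type libraries were close to 0, and every deletion library was above them. The means were 42.3 in the deletion and 4.38 in wild-type, while no row had a mean over all libraries below 15.4. Scn3a was thus among the rows only through its deletion libraries. The Scn3a call, and its part in the share of the list called, carry that limit. It was not called without deletion replicate 2 or 3 or wild-type replicate 3, and DESeq2 gave it no adjusted p. From the neural list given above, Sox2 stood at 70.7, 37.1 and 97.2 normalized counts in the deletion against 61.3, 8.90 and 14.6 in wild-type. Pax6 stood at 64.4, 74.3 and 38.9 in the deletion against 52.2, 37.4 and 22.0 in wild-type. Both overlapped between the groups, and they had the highest log2 fold changes among the measured genes of that list. The other log2 fold changes were 0.36 for Map2, 0.26 for Snap25, 0.08 for Stmn2 and 0.06 for Dcx. They were −0.02 for Elavl4, −0.06 for Nefl, −0.12 for Syt1 and −0.50 for Tubb3. The list median was 0.07, and 0 of its genes passed. Of 4 neural crest and glia markers 1 was measured, Erbb3, at 356, 393 and 379 in the deletion against 387, 295 and 282 in wild-type, with overlap, while Sox10, Foxd3 and Tfap2b were not among the rows. The part of these markers in the Scn3a values was not tested. Rangrf, a protein that promotes delivery of sodium channels to the membrane, fell to 842, 734 and 734 in the deletion, against 1153, 942 and 1078 in wild-type (log2 fold change −0.45, adjusted p = 0.0371, limma). Its call was lost without any 1 library except wild-type replicate 2, with the replicate number as a block (adjusted p = 0.0502, limma) and with sex as a term (0.0615).

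Of 23 genes of working chamber muscle, all measured, 1 rose and 1 fell, 8.70% of the list against 3.05% of all genes, with a median log2 fold change of 0.06 against −0.01. At an unadjusted p under 0.05, 5 were higher and 2 lower, 30.4% of the list against 21.4% of all genes. Ryr2 is on this list and on the pacemaker list, and is counted among the higher genes of both. Irx5, an Iroquois repressor that shapes ventricular repolarisation, fell to 224, 186 and 244 normalized counts in the deletion, against 325, 359 and 401 in wild-type (log2 fold change −0.73, adjusted p = 0.0217, limma). Nppb, the natriuretic peptide gene, rose to 4510.3 ± 695 in the deletion against 2671 ± 678 in wild-type (SD, n = 3 each; log2 fold change 0.78, adjusted p = 0.0418, limma). Irx5 was not called without deletion replicate 1 or 2 or wild-type replicate 3, and Nppb without any 1 of the deletion libraries or wild-type replicate 1. Nkx2-5, which Shox2 represses, had a log2 fold change of 0.07, and Gja5, which Tbx3 represses, of −0.25. Both were chosen after their values were seen, and neither passed (adjusted p = 0.730 and 0.243, limma). The chamber genes Nppa and Gja1 of the same list had log2 fold changes of 0.17 and 0.08 and did not pass either (adjusted p = 0.384 and 0.608, limma).

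**Figure D4:**
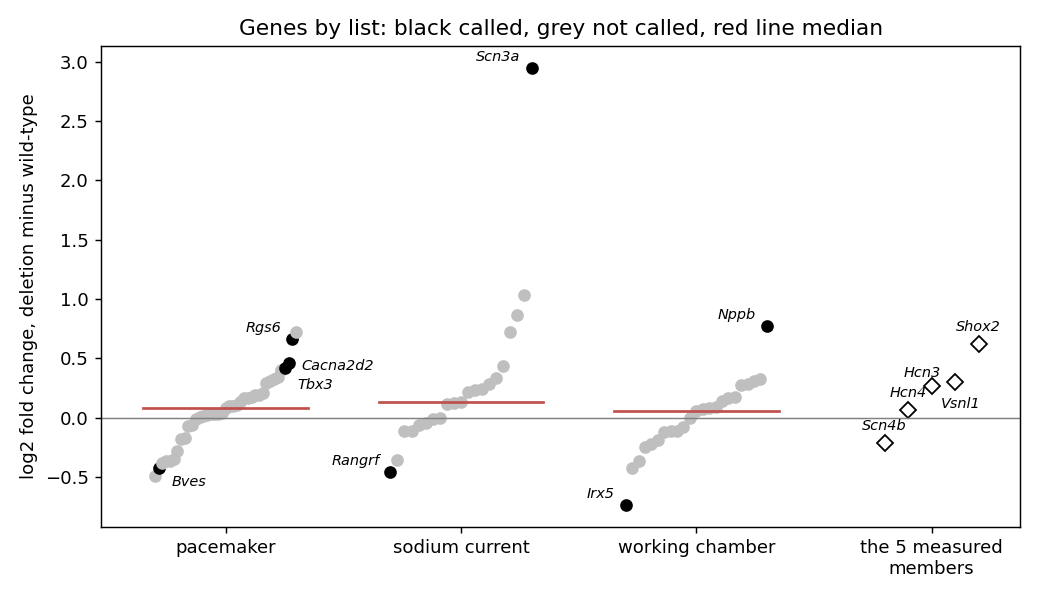
Log2 fold changes, deletion minus wild-type (y axis), of the measured genes of the pacemaker, sodium current and working chamber lists, ordered within each list, and of the 5 genes named here (diamonds). Black points passed an adjusted p of 0.05 in limma, grey points did not, and red lines mark the list medians of 0.08, 0.13 and 0.06.

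The genes nearest in pattern were found by the root-mean-square difference of deviations from the own mean over the 6 libraries, on the log2 scale, among 11763 genes (11764 for Hcn3) whose mean was 50 normalized counts or more, leaving out rows named only as gene models, clones or Ensembl identifiers, and Xist and Tsix. For Shox2 these were Calcr (0.15) and Hlf (0.18), against a root-mean-square deviation of Shox2 itself of 0.46. Calcr peaked in the same library, at 212 normalized counts in deletion replicate 3 and between 87.4 and 108 elsewhere. For Vsnl1 they were the pseudogene Rps13-ps4 (0.05) and the sodium channel gene Scn10a (0.08), against 0.23. For Hcn4 they were Klhl5 and Zfp383 (0.02 each against 0.08), for Scn4b Ccdc12 (0.03) and Mrpl18 (0.04) against 0.15, and for Hcn3 Rpl13-ps3 (0.24) and Il4ra (0.26) against 0.56. None of the 10 passed the test between groups, an outcome largely fixed by their choice for likeness to genes that were not called.

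**Figure D5:**
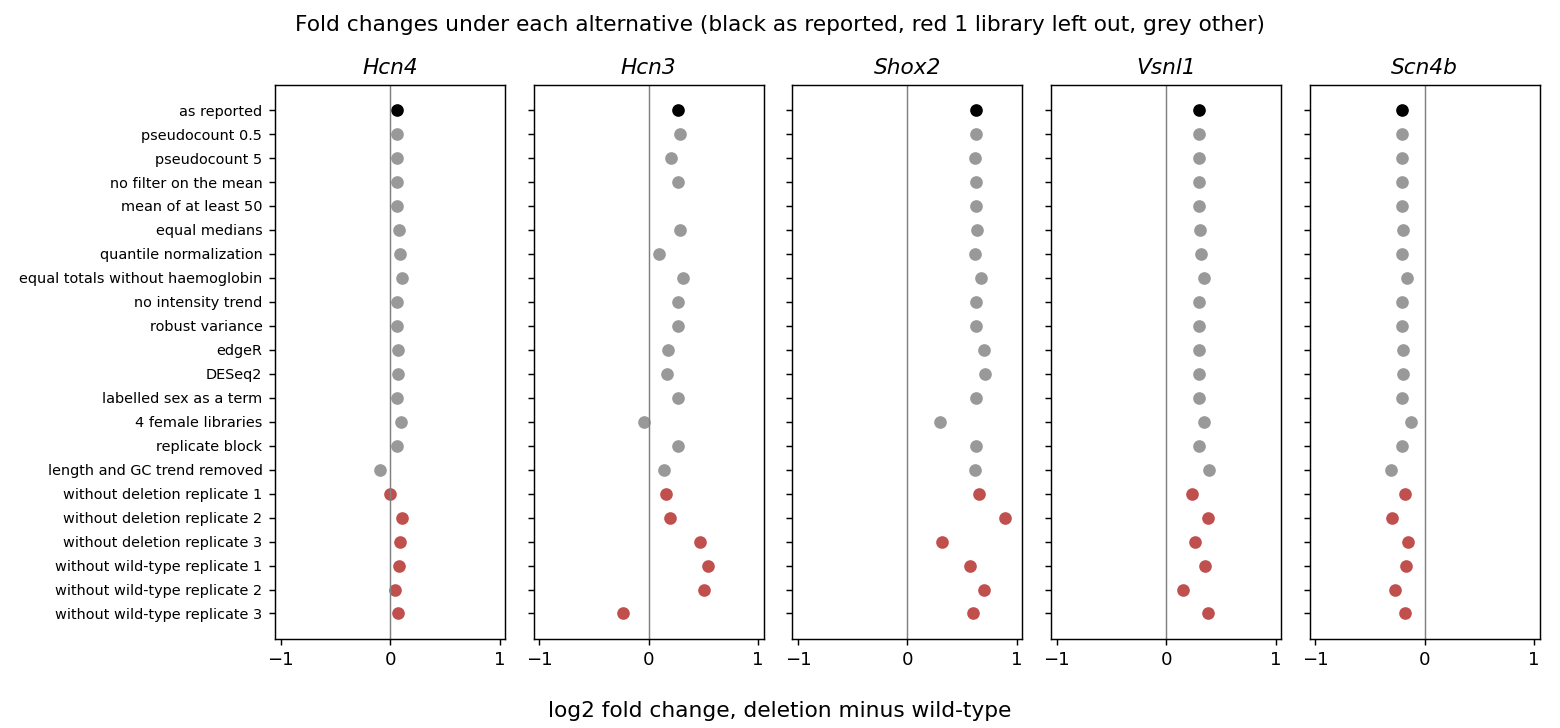
Log2 fold changes, deletion minus wild-type (x axis), of the 5 measured genes as reported (black), with 1 library left out (red) and under the other alternatives (grey), recorded file assignment not drawn. Shox2 stays between 0.30 and 0.89 and Scn4b between −0.31 and −0.13, while Hcn3 and Hcn4 lie on both sides of 0.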

How the data were processed

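Libraries were stranded, poly(A)-selected and paired-end, from 300 ng of RNA, per the labels' protocols. STAR 2.7.9a, featureCounts, Subread 2.0.1, DESeq2 1.30.1, GRCm39 and mm39 are named in the submitters' processing notes. The sources used here do not give the annotation, the strand setting or the gene filter. Deposited values are a signal, normalized counts per gene, per the file names. Division of reads by a factor for each library was inferred from the values. A table of 15330 rows and 6 columns was used, and 5 further files repeat single columns.

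The values were whole multiples of 1 read for 100% of entries within a tolerance of 0.01, so reads were recovered for edgeR 4.0.16 and DESeq2 1.42.0. The main test was limma 3.58.1 in R 4.3.3, with a trended variance, on log2(normalized count + 1) for genes with a mean of at least 10, which removed none (lowest mean 15.4). Fold changes are differences of mean logs on that scale, where the added 1 shrinks the change of low genes. They can also exceed count-based ones, as for Hcn3, at 0.27 against 0.17 in edgeR and 0.17 in DESeq2. P-values are two-sided. The test was tried on simulated counts. Alternatives covered pseudocount, filter, scaling, variance model, tool, sex, a replicate block, recorded files, length and GC content (natural splines with 4 degrees of freedom, GENCODE M21 on GRCm38, lengths for 96.9% of genes) and each library left out. A sex interaction was added after seeing the data.

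Genes and lists were chosen with earlier results of these data known. Named besides the 6 genes and Hand2 are up to 4 called members per list, by p, and the 2 genes nearest in pattern to each measured gene. Some genes of the lists are not reported here and were left out of their counts, sums and medians. Tbx18, Isl1, Nkx2-5, Gja5, Nppa, Gja1, Popdc2, Popdc3, Scn7a and Fgf12 were chosen after their values were seen. Same-numbered libraries of the groups did not deviate together (correlations of deviations over genes −0.03, −0.12 and −0.14). Deletion replicates 1, 2 and 3 correlated with wild-type replicates 3, 1 and 2 at 0.21, 0.18 and 0.25. Those pairs also ranked alike by summed primitive blood markers. Correlations over all genes therefore cannot show whether the numbers pair libraries, and the main test used no block.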

Additional observations from a re-analysis of the deposited data

How the results depend on the processing

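No alternative gave a call to any of the 5 measured genes. Shox2 and Scn4b kept their sign in all 22 alternatives, Vsnl1 in 21. Alternatives that changed only the filter, the variance or a balanced term for sex or replicate returned the same fold change. The sign could not move in those, and a sign kept under the recorded files, where Hand2 reversed, carries no weight. Under the recorded files, which exchange 4 libraries between groups, Vsnl1 was −0.17 and Hcn4 −0.067 (log2), Shox2 0.23, Hcn3 0.33, Scn4b −0.04, Hand2 0.57, Tbx3 −0.24, Rgs6 −0.29, Cacna2d2 −0.27, Bves 0.013, Scn3a −0.48, Rangrf 0.086, Nppb −0.35 and Irx5 0.26, and limma called 0 of all genes (414 at an unadjusted p under 0.05). Hcn4 was −0.088 with the correction for length and GC content and Hcn3 −0.043 in the 4 female libraries. With 1 library left out, Hcn3 ranged from −0.24 to 0.54 and Hcn4 from −0.0026 to 0.11. The cause of these reversals was not tested. Hcn3 had no value at a mean of at least 50.

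Against 3 higher and 1 lower pacemaker genes, 1 and 1 sodium current genes and 1 and 1 working chamber genes, all 6 counts were 0 in the 4 female libraries and under the recorded files. Without an intensity trend 1 pacemaker gene was higher and the other 5 counts were 0. With the replicate block 1 pacemaker gene was higher and 0 lower, and 2 sodium current genes were higher and 0 lower. The block changed no call of the 5 measured genes. With the correction for length and GC content 1 pacemaker gene was higher and 2 lower, 2 sodium current genes were higher and 2 working chamber genes were lower. DESeq2 gave 2 lower pacemaker genes, 2 higher sodium current genes and 4 higher and 2 lower working chamber genes. Working chamber genes called higher numbered 2 after quantile normalization, 2 with equal totals without haemoglobin and 0 with robust variance. Sodium current genes called higher numbered 2 in edgeR, with robust variance and with equal totals without haemoglobin, and 0 with a mean of at least 50. With sex as a term 2 were higher and 0 lower. With 1 library left out, 1 to 4 pacemaker genes were higher and 0 to 1 lower, 0 to 1 sodium current genes higher and 0 to 1 lower, and 0 to 1 working chamber genes higher and 0 to 2 lower. Those fits have fewer libraries. Hcn3 rests on 9 to 28 reads a library. Of all genes, 7.43% were called by DESeq2, 3.26% by edgeR, 1.34% with the block, 2.26% with sex as a term, 3.93% with equal totals without haemoglobin, 3.72% with robust variance, 3.44% after quantile normalization and 3.25% with the correction for length and GC content, against 3.05%.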

Other observations

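Of the 2 Popeye genes other than Bves, chosen after their values were seen, neither passed. Popdc3 stood at 198, 174 and 197 normalized counts in the deletion libraries and at 227, 227 and 280.0 in the wild-type libraries, without overlap, as in 14.5% of all genes (adjusted p = 0.148, limma). Popdc2 stood at 8971, 8335 and 7960.4 in the deletion and at 9910.2, 8426 and 10090 in wild-type, with overlap (adjusted p = 0.288, limma).

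A genotype by sex interaction for Shox2 was 0.98 on the log2 scale and did not pass (adjusted p = 0.999, limma). It rests on 1 male library per genotype, and the male deletion library is the one with the highest summed epicardial and blood markers, so sex and that library cannot be told apart. No gene passed that test, with 651 at an unadjusted p under 0.05.

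Sodium channel genes below the threshold included Scn7a, with 274, 368 and 362 normalized counts in the deletion libraries and 173, 189 and 249 in the wild-type libraries without overlap (adjusted p = 0.0515 in limma, 0.0494 in edgeR and 0.00235 in DESeq2). Fgf12, whose product binds sodium channels, stood at 57.0, 56.6 and 126 in the deletion and at 35.2, 25.8 and 50.3 in wild-type, and it was highest in deletion replicate 3, as Shox2 was (adjusted p = 0.133 in limma and 0.0453 in DESeq2).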
